A study of Homo sapiens with 22 samples.

Results

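The comparison described here is benzo(a)pyrene against vehicle in H520 cells, with 10 of the 22 libraries of the series: 5 transfections exposed to 10 µM benzo(a)pyrene (BaP) for 42 h and 5 that received DMSO, the vehicle. H520 is an established human lung squamous cell carcinoma line. All 10 RNA libraries come from cells transfected with the same pool of luciferase reporter plasmids, so a response is that of ectopic reporters in 1 line at 1 dose and 1 time. Each group holds transfections numbered 1 to 5, and the labels do not say whether equal numbers mark a shared day, culture or plasmid preparation. The H520 input library, made from the plasmid DNA, gave the amount of each reporter in the pool. A like design was run in A549, a lung adenocarcinoma line, with an exposure of 18 h. The titles of the A549 and H520 input libraries carry different version marks. A549 values are given beside those of H520 where they bear on the same tags.

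BaP is a polycyclic aromatic hydrocarbon of tobacco smoke. It binds the aryl hydrocarbon receptor (AhR), which enters the nucleus, pairs with ARNT and acts on genes such as CYP1A1, whose product oxidises BaP to metabolites that bind DNA and form adducts. In a massively parallel reporter assay many candidate regulatory fragments are cloned beside a reporter gene, and a short tag in the transcript tells which plasmid an RNA came from. RNA counts over DNA counts of a tag then measure how strongly its plasmid was transcribed. The libraries hold reporter tags only, so neither CYP1A1 nor markers of squamous cells could be read, and nothing in these files checks that cells had responded to BaP or that the line is the one labelled.

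Tags were used where the H520 input held 10 or more counts, which was so for 224276 of 238017. A table joining tags to cloned fragments was not used here. More than 1 tag may belong to a fragment, so a number of tags is no number of fragments, and tags that share a fragment are not independent. Tags are designed sequences with no genome position. Tags are listed as 15 letters: 12 variable bases followed by 3 constant ones.

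The tags on which the comparison turns are printed below, 5′ to 3′ as deposited, with the 12 variable bases in capitals and the constant bases in lower case. No source used here gives the strand relative to the transcript. Codes beginning with H mark tags called higher with BaP once the transfection number was a term of the fit, and codes beginning with L tags called lower; N marks tags not called. The first 6 of each direction, in order of p, were:
Ha: ACCTTCGTTTATggc
Hb: TTCGTTTACCGGggc
Hc: AATTACGTAAGGggc
Hd: GAAATCGTCGGGggc
He: AACGGGTACTGGggc
Hf: AGATTTCCAATCggc
La: CGCCCGATAACGggc
Lb: CCTTGAGATCGGggc
Lc: AACCGCGATAGAggc
Ld: CCTCAAGACGACggc
Le: AATGCGTTGATCggc
Lf: GGATAACTATCCggc

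Others are shown because they had the largest changes (Hg, Hk, Hl, Li and Ll), because DESeq2 called them without that term (Hh, Hj, Hm, Lg and Lh), because they had a small p without it (Hi and Na), because the tag holds the AhR core (Lj), or because they were the most active of all tags with at least 500 input counts (Lk, Nb and Nc):
Hg: GTCAGCGTAAGGggc
Hh: GCGAGACGCATTggc
Hi: GCGAACGATTGCggc
Hj: CTATTAGTTAAGggc
Hk: AGCTCGATGCAGggc
Hl: CAGTACGGTCGGggc
Hm: CGTTGCGCTATAggc
Lg: CTACTCGAGATAggc
Lh: ACTTACGGGTCCggc
Li: AGTAATCCCGGAggc
Lj: CAAACGTTGCGTggc
Lk: TGCGCGTCGAAAggc
Ll: GCCCGACTATCTggc
Na: GTACGTTACTCTggc
Nb: CGCCGTCGAAAGggc
Nc: GCGCATCGTTAGggc

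Depth was 179 to 332 M counts (M stands for mega) in the DMSO and 200 to 371 M in the BaP libraries, with a median of 608 to 1116 and 677 to 1260 counts per tag. Pearson r of log2 TPM (counts of a tag per M counts of the library) across tags was 0.986 to 0.993 over all 45 pairs of these 10 libraries. Transfection 3 stood apart in both groups for tags more active in H520 than in A549. Its BaP library also had the largest total, so results are given without it where it moves them.

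Without the transfection number in the fit, no tag passed the test. edgeR's quasi-likelihood test called 0 of 223732 tags higher and 0 lower at an adjusted p of 0.05 (background 0.0% in each direction), while 10534 tags (4.71%) had an unadjusted p under 0.05. DESeq2 called 5 tags higher (0.0251% of the 19911 tags for which it gave an adjusted p) and 6 lower (0.0301%). The fold changes were small: 95% of tags lay between log2 values of -0.225 and 0.229, and the median absolute log2 fold change was 0.0547. An estimate of 2-fold or more was given for 106 tags, and these were scarce ones, with medians of 22 input counts and 17 RNA counts.

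The intervals show what sizes of response these libraries could and could not hide. Without the number, the 95% interval of the fold change lay wholly within 1.5-fold of no change for 93.7% of tags and within 1.2-fold for 65.2%. With the number these shares were 93.4% and 66.5%. Precision went with input depth: with the number as a term, 99.2% of tags with 2000 or more input counts had an interval within 1.2-fold, against 82.1% from 500 to under 2000, 12.9% from 100 to under 500 and 0.0576% below 100. No tag with 500 or more input counts had an interval that lay wholly beyond 1.2-fold in either fit. For tags under 100 input counts the median half-width of the interval was 1.55-fold with the number as a term. Only 10.6% of them had an interval within 1.5-fold, so for most of them a change of that size was not excluded.

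The fit with the transfection number as a block compares BaP with DMSO among libraries of equal number. It called 149 of 224143 tags (0.0665%) at an adjusted p of 0.05, by edgeR's quasi-likelihood test: 85 higher with BaP (0.0379%) and 64 lower (0.0286%). Unadjusted p-values under 0.05 rose to 13773 tags (6.14%). For the 149 tags the median SE of the log2 fold change was 0.0271 with the block and 0.0488 without. Of the 85, 66 had an unadjusted p under 0.05 by edgeR without the block, and of the 64, 46 (background 4.71% of tested tags). The fit with the block selected these tags from the same 10 libraries, so both comparisons follow in part from the selection and are a description. All 11 DESeq2 calls without the block were among the 149, in the same direction.

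**Figure D1:**
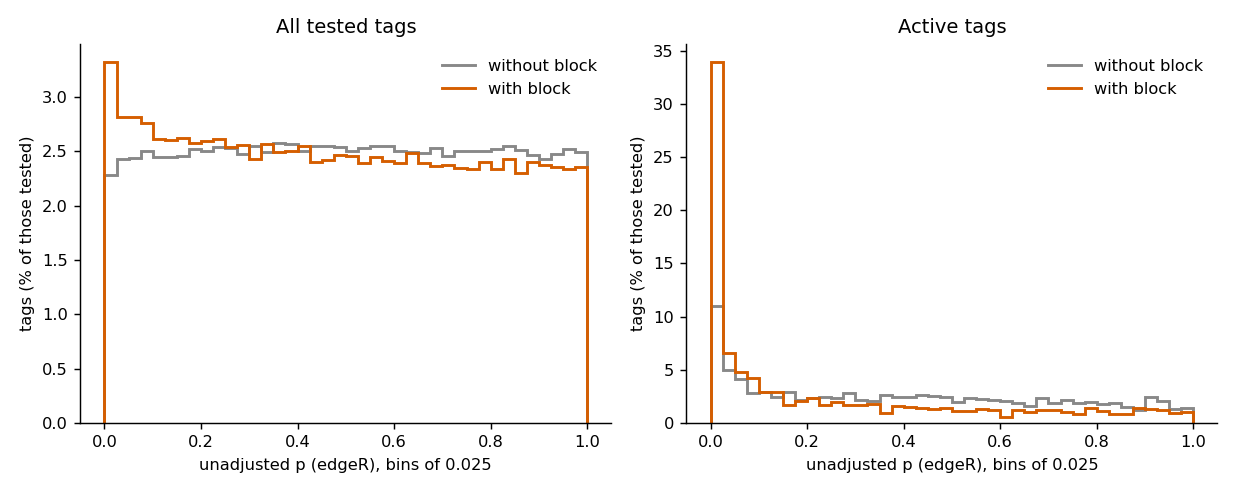
Share of tags (%) in each bin of the unadjusted p-value from edgeR, without (grey) and with (orange) the transfection number as a block, for the 224143 tags tested with it or 223732 without (left) and for the 2253 active tags (right). Over all tags the grey outline is nearly flat and the orange one rises slightly at small p, while over active tags both rise at small p and the orange one far more.

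The called changes were small. The 85 higher tags rose 1.05- to 1.35-fold, with a median of 1.11-fold, and the 64 lower tags fell 1.08- to 1.15-fold, with a median of 1.1-fold. Of the 85, 84 had the BaP library above the DMSO library of its number 5 times of 5 (background 3.75% of tested tags), and 63 of the 64 had it below 5 times of 5 (background 3.65%). These shares follow from the same contrast that made the calls and are a description. In 15 of the 85 every BaP library lay above every DMSO library (background 0.401%), and in 12 of the 64 every BaP library lay below (0.402%). For the others the groups overlapped.

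Tag Ha had the smallest p among the higher calls. Its RNA stood at 51.2, 51.1, 46.9, 51.7 and 53.1 TPM in DMSO transfections 1 to 5 and at 57.2, 59.4, 53.4, 58.3 and 62.2 TPM with BaP. All 5 BaP values lay above all 5 DMSO values, and the lowest of each group was transfection 3. The log2 fold change was 0.19 (SE 0.0247, edgeR adjusted p = 6.23e-05 with the block). Without the block the same log2 fold change of 0.19 had an SE of 0.0443 and an edgeR adjusted p of 0.998, whereas DESeq2 gave an adjusted p of 0.0256.

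Tag Hb behaved alike, at 42.2, 40.8, 38.0, 42.1 and 45.5 TPM with DMSO and 45.9, 47.0, 46.4, 50.4 and 51.1 TPM with BaP. Here too no BaP library fell among the DMSO libraries, and the rise was 1.16-fold (95% interval 1.11 to 1.2, edgeR adjusted p = 6.35e-05 with the block). Tag Hc shows the other case: 51.3, 47.7, 42.6, 50.5 and 52.2 TPM with DMSO against 58.7, 54.1, 48.2, 55.2 and 59.1 TPM with BaP. Its groups overlapped because transfection 3 was low in both, while each pair moved up (1.13-fold, edgeR adjusted p = 0.000565 with the block). Tags Hd, He and Hf rose 1.12-, 1.11- and 1.11-fold, again in all 5 pairs and with overlapping groups.

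Tag Hl had the largest rise among calls with at least 500 input counts, 1.35-fold (95% interval 1.19 to 1.53, edgeR adjusted p = 0.0311 with the block). It was read at only 2.28, 2.56, 2.97, 1.55 and 2.52 TPM with DMSO and 3.75, 3.46, 3.11, 2.63 and 2.92 TPM with BaP. The DMSO values spread 1.92-fold, the groups overlapped, and its H520 activity was -0.09, that of a typical tag. Hg and Hk followed with rises of 1.18- and 1.17-fold.

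Tag La had the smallest p of all. It stood at 213, 227, 252, 238 and 212 TPM with DMSO and 194, 194, 218, 203 and 198 TPM with BaP. Transfection 3 was the highest library of each group, the groups overlapped through it, and each pair fell (log2 fold change -0.18, SE 0.0197, edgeR adjusted p = 1.37e-06 with the block). Without the block the SE was 0.0517 and the edgeR adjusted p was 0.998.

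Tag Lc fell from 80.7, 78.5, 88.2, 80.4 and 79.6 TPM to 72.7, 69.8, 77.0, 73.6 and 72.9 TPM, and no BaP library reached the lowest DMSO library (0.899-fold, edgeR adjusted p = 0.000776 with the block, DESeq2 adjusted p = 0.0473 without). Tag Lf likewise fell without overlap, from 45.9, 44.8, 48.7, 45.9 and 44.3 TPM to 39.8, 40.5, 42.5, 41.4 and 40.7 TPM (0.892-fold, edgeR adjusted p = 0.00206 with the block). Tags Lb and Le fell to 0.873- and 0.92-fold, with groups that overlapped. The largest falls among calls with at least 500 input counts were those of Ll, Lb and Li, at 0.869-, 0.873- and 0.874-fold, and no called tag fell by more than 1.15-fold.

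**Figure D2:**
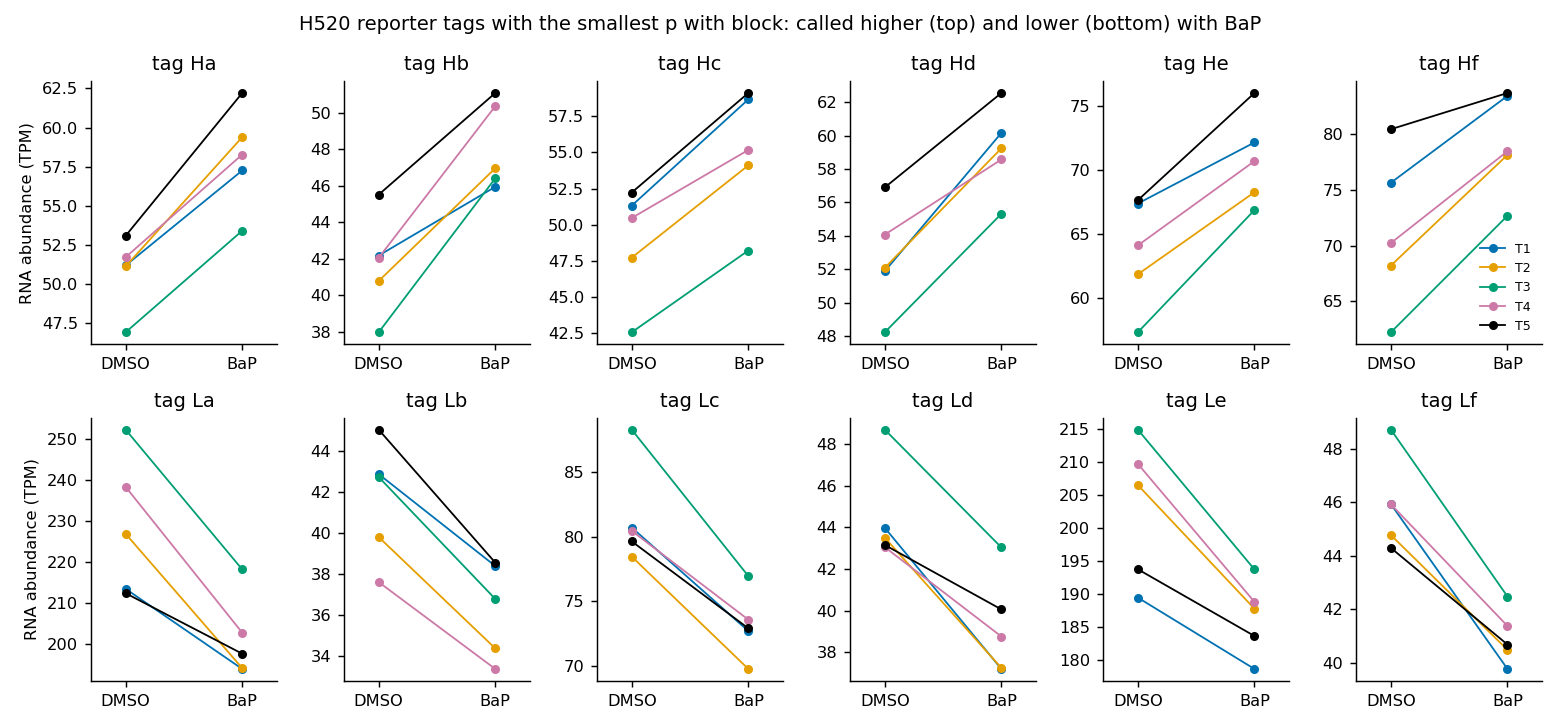
RNA abundance (TPM) of the 6 tags called higher (top) and the 6 called lower (bottom) with the smallest p, with a line from the DMSO to the BaP library of each transfection number (colours). Every line moves in the direction of its row, and number 3 is the lowest DMSO library of all 6 upper tags and the highest of 5 of the 6 lower ones; axes do not start at 0.

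Tags without a call can still have a sizeable estimate. Tag Na had 1.24, 1.06, 1.42, 0.959 and 0.984 TPM with DMSO and 0.777, 0.814, 0.363, 0.871 and 0.581 TPM with BaP. Its groups did not overlap and its log2 fold change was -0.75 without the block (SE 0.172), yet with a mean of 223 RNA counts it did not pass in either fit (edgeR adjusted p = 0.998 without and 0.204 with the block).

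The called tags were mostly active ones. Activity is log2 of RNA TPM over input TPM (each with 0.5 added) minus the median of the library, averaged over the 10 H520 RNA libraries, so that both groups enter alike; tags at 1 or more were called active. Of 2253 active tags, 74 rose and 61 fell (5.99% called, against 0.0665% of all tested tags). Between activities of -1 and 1, where 221831 tags lay, 11 rose and 3 fell (0.00631%). Depth goes with this: the called tags had medians of 7960 (higher) and 14000 (lower) RNA counts, against 852 over all tested tags, and the part of depth in the difference was not tested.

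Among active tags the direction differed with the level. From 1 to 2, 17 of 1258 tags rose and 1 fell. From 2 to 3, 52 of 745 rose and 19 fell, with a median log2 fold change of 0.0196. From 3 to 4, 2 of 197 rose and 25 fell, with a median of -0.0425. At 4 or more, 3 of 53 rose and 16 fell, with a median of -0.103, where the median over all tested tags was 0.000115. These groups are described by their counts and medians, without a test.

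The direction also differed with how a tag did in the other line. Tags with an H520 activity of at least 1 and at least 1 above that in A549 were termed H520-biased, tags within 1 of each other and active in either line balanced, and tags active in A549 and at least 1 above H520 A549-biased. Of 433 H520-biased tags, 58 rose and 0 fell (13.4% called, against 5.99% of active and 0.0665% of all tested tags). Their median log2 fold change was 0.0777, 85.2% were positive, and 217 (50.1%) were higher in all 5 pairs, against 6 (1.39%) lower in all. Of active tags 21.2% were higher and 11.5% lower in all 5 pairs, and of all tested tags 3.75% and 3.65%. All 6 of Ha to Hf belong to them.

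The balanced tags held most of the falls and also most of the active tags, such as 865 of the 1258 from 1 to 2 in H520. Of 1835 balanced tags, 16 rose and 54 fell (3.81% called, against 5.99% of active and 0.0665% of all tested tags). Their median log2 fold change was 0.0104. Most of these falls lay at the upper end of activity. From 2 to 3 in H520, 13 of 491 balanced tags fell and 11 rose. Among the 173 balanced tags at 3 or more, 41 fell (23.7%) and 0 rose, and the median was -0.0829. Of these 173, 162 had a negative estimate, 84 were lower in all 5 pairs and 3 higher in all. Over active tags 5.99% were called either way and 11.5% were lower in all 5 pairs, and over all tested tags 0.0665% and 3.65%. The A549-biased tags had 7 falls and 0 rises among 1691, a share of 0.414%, and a median of -0.0201. Most of them, 1405, lay between -1 and 1 in H520, with 0 calls and a median of -0.00958. From 1 to 2 in H520, 1 of 195 fell (median -0.0509), and from 2 to 3, 6 of 80 fell (median -0.0441). From 3 to 4, 0 of 11 were called (median -0.071). The groups by level and by line overlap in their tags, and their limits were chosen with earlier results of these data known.

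Tags of like activity in H520 differed in direction with their activity in A549. Among tags at 4 to 5 in H520, the 34 that were also at 4 to 5 in A549 were all negative, with 12 calls lower, a median of -0.109 and 24 lower in all 5 pairs. The 15 at 2 to 3 in A549 were all positive, with 3 calls higher and a median of 0.0682. Among tags at 2 to 3 in H520, the 64 at 0 to 1 in A549 were all positive (20 called higher, median 0.136), the 329 at 1 to 2 had 30 calls higher and 0 lower (median 0.069), and the 260 at 2 to 3 had 2 higher and 13 lower (median -0.0385). The 63 tags at 3 to 4 in both lines had 23 calls lower, 0 higher and a median of -0.0988.

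Across the 1421 active tags with a mean of at least 3000 RNA counts, the log2 fold change in H520 correlated with the difference of activities, H520 minus A549 (Pearson r = 0.554, Spearman rho = 0.61). It correlated weakly with H520 activity (r = -0.226, rho = -0.215) and negatively with A549 activity (r = -0.579, rho = -0.567). These are correlations across tags. The fold changes and H520 activities come from the same 10 H520 libraries with the H520 input, and the A549 activities from the 10 A549 RNA libraries with the A549 input. Many of these tags lie in tight clusters on the map of both activities, and tags are not independent replicates, so no p is given.

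**Figure D3:**
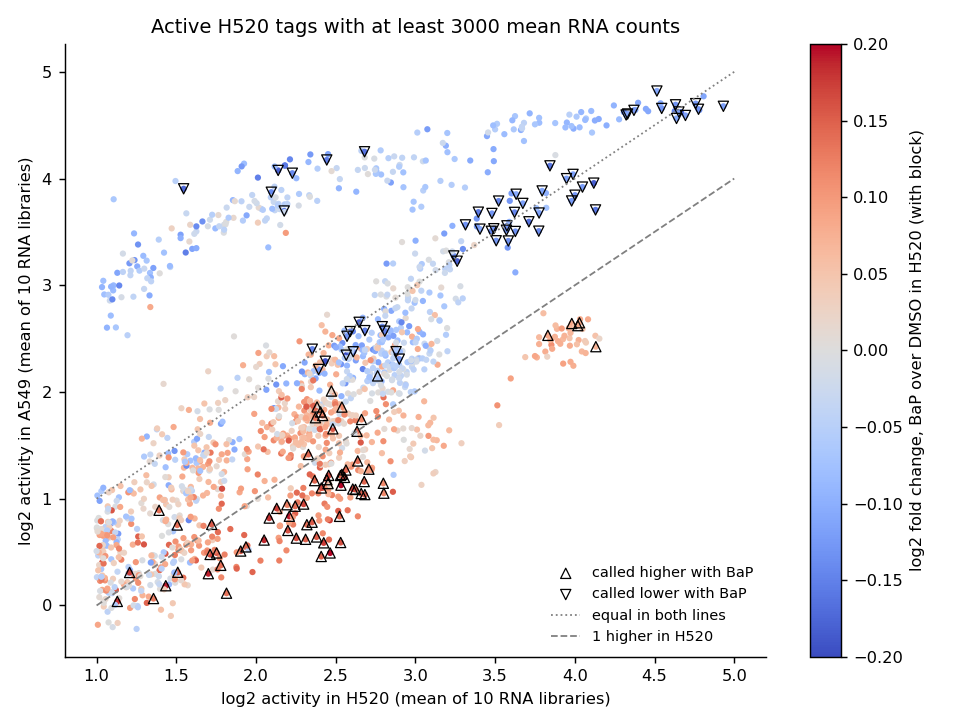
Mean log2 activity in H520 (x) and A549 (y) of the 1421 active H520 tags with a mean of at least 3000 RNA counts, coloured by their BaP response in H520 (log2 fold change, fit with block); the colour scale ends at 0.2 either way. Triangles pointing up mark calls higher and pointing down calls lower; points below the dashed line are H520-biased, and calls higher lie mainly towards the lower right and calls lower along the dotted diagonal.

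The H520-biased median was above 0 in each same-numbered pair, at 0.09, 0.064, 0.092, 0.0463 and 0.0699 for numbers 1 to 5. The balanced tags at 3 or more had medians of -0.0608, -0.0543, -0.0309, -0.152 and -0.0723, all negative and lowest in number 4. The A549-biased medians were -0.0204, -0.0107, 0.00713, -0.0459 and -0.032, so number 3 had the other sign. Number 4 had the other sign in the tags with an activity of 2 to 3 (-0.00572, against a median of 0.0196 in the fit) and in the balanced tags as a whole (-0.0106, against 0.0104). Without number 5 the balanced median was 0.00607. Scaling by size factors of the DESeq2 type or by library totals left the medians of the 3 line classes and of each step of activity from 1 upwards with their signs: the H520-biased median was 0.0777 and 0.0774. TMM factors were 0.995 to 1.003, so a change of scaling could hardly alter these signs.

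**Figure D4:**
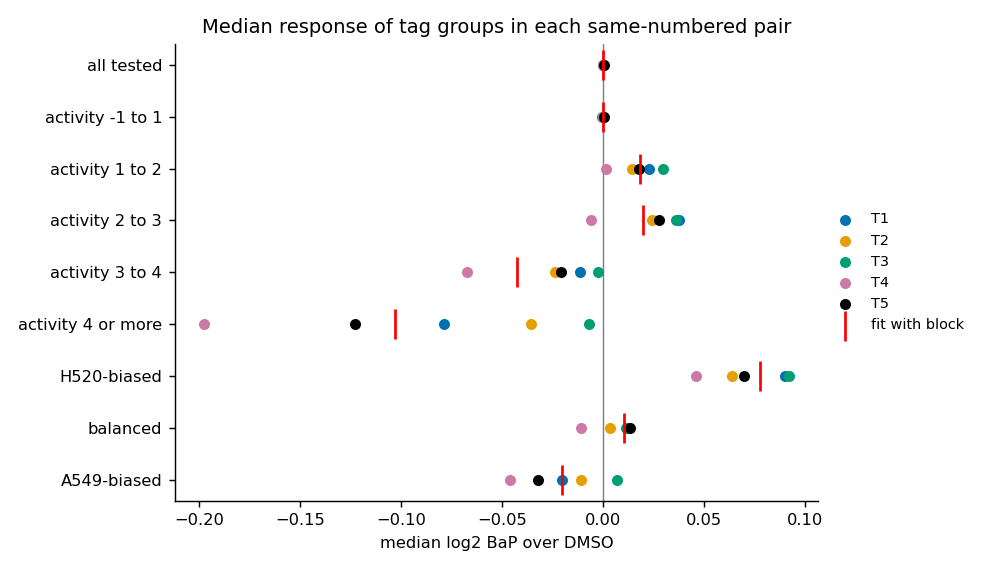
Median log2 ratio of BaP over DMSO within each transfection number (coloured points) and median log2 fold change of the fit with block (red bar), for all tested tags, for steps of H520 activity and for the 3 line classes. The 5 points of the H520-biased tags lie between 0.0463 and 0.092, those of tags with an activity of 4 or more between -0.198 and -0.00676, and those of all tested tags at about 0.

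Many more tags were called for the transfection number than for BaP. The term for the number called 1532 of 224143 tags (0.683%) by edgeR at an adjusted p of 0.05 (9.58% had an unadjusted p under 0.05), and 999 of the called tags (65.2%) were active. For these tags, which that term selected, the median range over the 5 numbers was 0.339 on the log2 scale (1.26-fold), whereas their median absolute BaP log2 fold change was 0.0629 (1.04-fold). Of the tags at an activity of 4 or more, 96.2% were called for the number. The number farthest from the others was 3 for 29.6% of the called tags, 4 for 28.5%, 1 for 28.0%, 5 for 11.2% and 2 for 2.61%. Of the 149 tags called for BaP, 95 (63.8%, and 6.2% of the 1532) were also called for the number.

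The most active tags show both terms. Lk stood at 159, 205, 234, 252 and 181 TPM with DMSO and 149, 192, 230, 212 and 165 TPM with BaP. Its DMSO libraries spread 1.59-fold and its BaP libraries 1.54-fold, in nearly the same order, and within each number BaP was lower. The log2 fold change was -0.12, with an SE of 0.165 without the block and 0.0218 with it (edgeR adjusted p = 0.0117 with the block).

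Nb had 267, 348, 400, 435 and 321 TPM with DMSO and 256, 318, 398, 361 and 282 TPM with BaP, and was not called (log2 fold change -0.13, edgeR adjusted p = 0.662 with the block). Nc had 158, 204, 229, 249 and 183 TPM with DMSO and 152, 189, 235, 210 and 162 TPM with BaP, lower with BaP in 4 of 5 pairs and not called (edgeR adjusted p = 0.692). In all 3 tags the BaP library of number 4 was well below its DMSO library while that of number 3 was close to it.

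Whether equal numbers belong together was examined from the deviations of each library from its group mean. Over all tested tags the correlation of same-numbered libraries was 0.059, 0.042, 0.15, 0.081 and 0.048, so 1 of 5 exceeded 0.1. Over tags with a mean of at least 1000 RNA counts it was 0.096 to 0.286 (3 of 5), and over active tags 0.473 to 0.826 (5 of 5), a choice made after seeing the data. Libraries of different numbers had correlations of -0.565 to 0.566 over active tags. In each case 9 of 10 libraries correlated best with the library of their own number. The labels do not state what the number stands for, so both fits are given and neither replaces the other.

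The number of calls with the block varied with the pair left out. Without number 1, 60 tags were called higher and 68 lower, 128 in all. Without number 2 these were 13 and 7, without number 3 they were 12 and 27, without number 4 they were 52 and 24, and without number 5 they were 41 and 31. All 149 tags kept their direction in each, and 20 to 100 of them were among the calls of the reduced fits. The kept direction was nearly fixed beforehand, since 84 of the 85 higher and 63 of the 64 lower tags moved alike in all 5 pairs. The median log2 fold change of H520-biased tags was 0.0735 to 0.0872 in the 5 reduced fits, against 0.0777 with all pairs, and 0.0769 in the fit without number 2, which had the fewest calls. For tags with an activity of 4 or more it was -0.12 to -0.069, against -0.103. The median SE of the 149 tags was 0.0287 to 0.0315, against 0.0271 with all pairs. H520-biased calls were 41, 12, 11, 46 and 33 higher and 0 lower in these fits, and calls among balanced tags at 3 or more were 38, 4, 22, 15 and 23 lower and 0 higher.

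A549 gave no calls. With 18 h of BaP, edgeR called 0 of 223511 tags with the number as a block (4.0% with an unadjusted p under 0.05) and 0 of 223066 without (2.6%). Of the 85 tags higher in H520, 52 had a positive estimate in A549, with a median log2 fold change of 0.0126, and 5 had an unadjusted p under 0.05; over all tested tags 49.8% had a positive estimate in A549. Of the 64 lower tags, 22 were positive, with a median of -0.0196, and 1 had an unadjusted p under 0.05. Tags with an H520 activity of 4 or more had an A549 median of 0.12 (69.8% positive), against -0.103 in H520. The A549-biased tags had 0.113 (78.7% positive), against -0.0201 in H520. In A549 the medians of H520-biased tags, tags from 3 to 4 in H520 and balanced tags at 3 or more were 0.00517, -0.0171 and -0.013. The opposite signs were not tested. Tag Ha stood at 15.8 ± 1.12 TPM with DMSO and 16.1 ± 2.84 with BaP in A549 (SD, n = 5 each), and La at 212 ± 22.4 and 202 ± 45.6 TPM. The SE of their log2 fold changes was 0.0506 and 0.109 in A549, against 0.0247 and 0.0197 in H520 with the block. Intervals are not given for A549, so its 0 calls do not show that changes of the size called in H520 were absent.

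The difference between the lines was not called for any tag. The line by treatment term gave 0 calls among 222691 tags with the block (10722, or 4.81%, with an unadjusted p under 0.05) and 0 among 222669 without (7693, or 3.45%), by edgeR. Among the H520 calls the smallest adjusted p of that term was 0.973 with the block. Its 0 calls do not show that the lines responded alike, since small differences could have gone uncalled. The 2 lines also differ in exposure time and in the version mark in the title of their input library. Neither can be told apart from the line.

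The AhR with ARNT binds a core of GCGTG. The tag lies in the transcript and is not the cloned fragment, so a core in a tag is a description of the tag only. The letters GTG and CAC occur within the 12 variable bases of 0 of 224276 tags, whereas TGC occurs in 26473. A core is therefore found only where a tag ends in GCGT and the first constant base completes it, in 1270 tags (0.566%), all as listed and 0 on the other strand.

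Of 1269 such tags tested with the block, 0 rose and 1 fell (0.0788% called, near the 0.0665% of all tested tags), and their median log2 fold change was -0.0131. The tag that fell was Lj, at 96.7, 106, 106, 112 and 92.3 TPM with DMSO and 92.9, 91.9, 95.1, 96.5 and 90.8 TPM with BaP. Its groups overlapped and each pair fell (0.914-fold, edgeR adjusted p = 0.0117 with the block).

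Other sequence groups of the tags held 0 or 1 call each; at the 0.0665% called over all tested tags, lists of these sizes would hold about as few, so nothing is read from them. The AP-1 site TGANTCA, read on both strands, occurred in 139 tags (0.062%), with 0 calls. The antioxidant element TGACNNNGC, bound by NRF2 with small MAF proteins, occurred on either strand in 1708 tags (0.762%), with 0 calls higher and 1 lower. The polyadenylation hexamer ATTAAA occurred as listed in 578 tags, with 1 call higher and 0 lower, and on the other strand in 544, with 0 calls; AATAAA occurred in 0 tags. Called tags had on average 5.62 (higher) and 5.98 (lower) G or C among the 12 variable bases, against 5.73 in all tested tags.

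Measures of the whole library did not differ between the groups by more than the spread of the transfections. The 10 most abundant tags took 0.365% ± 0.0381 of counts with DMSO and 0.374% ± 0.0291 with BaP (SD, n = 5 each, two-sided exact permutation p = 0.651, adjusted p = 0.905 over 4 measures). Active tags took 6.66% ± 0.381 and 6.68% ± 0.27 (exact permutation p = 0.873, adjusted p = 0.905, n = 5 each), higher with BaP in 4 of 5 pairs. The SD of activity across tags was 0.326 ± 0.00603 and 0.327 ± 0.00407 (exact permutation p = 0.802, adjusted p = 0.905, n = 5 each). The share of tags listed was at least 99.9% in every library (exact permutation p = 0.905). With 5 against 5 the smallest possible p is 0.00794, and within pairs 0.0625; the within-pair values were 0.125 to 0.875.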

How the data were processed

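Per the labels' protocols, polyadenylated RNA of transfected cells was copied into cDNA and the tag region amplified and sequenced; the H520 input was amplified from plasmid DNA. No molecular identifiers are described, so reads are not independent molecules. The submitters' processing notes name bcl2fastq; no source used here says how reads were matched to tags. Per the file headers, the deposited files hold raw counts per tag, the library's total count and TPM. The deposited TPM values equal the count divided by the total, per M counts; a tag not listed was taken as 0.

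Counts were tested with edgeR 4.0.16 (R 4.3.3) by the quasi-likelihood test with TMM, filterByExpr and robust dispersions, on tags with at least 10 H520 input counts, without and with the transfection number as a block. The number itself and the line by treatment term were tested in fits of the same kind. P-values were adjusted by Benjamini-Hochberg over all tested tags, at 0.05. Fold-change intervals (95%) came from the coefficient and its F value; 2 tags of the block fit gave none. TMM factors were 0.995 to 1.003. Library measures were compared by two-sided exact permutation tests.

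Alternatives were DESeq2 1.42.0 (an adjusted p that it left empty stayed empty), limma 3.58.1 on log2(TPM + 0.5), other scalings, filters and thresholds, and leaving out libraries. Fits were also run on counts simulated with the dispersions of these same libraries. For the fit with the block the simulation kept the differences between numbers. It therefore cannot tell whether equal numbers belong together, and nothing is read from it. Called tags had dispersions of 0.741 to 1.19 times those of tags of like abundance. P-values without the block measure the spread among the transfections of a group. With the block they measure the spread that is left among the differences of same-numbered libraries. Either spread may be technical, since no label says that the transfections were separate cultures.

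Named tags are, each way, the 3 with the smallest p without block; with block the 6 called with the smallest p (5 among active tags) and the 3 called with the largest change at 500 or more input counts; DESeq2 calls without block, at most 6; the 3 most active tags; and called tags with an AhR core. The comparison, lists and rule were chosen with earlier results of these data known. Groups crossing both lines' activities were added after the data were seen.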

Additional observations from a re-analysis of the deposited data

Results flagged for a closer look

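Among 80 groups of 5 values, 5 had a library far from the other 4 (a gap over 0.71 of the group's range, where chance gives about 1 in 20). That share is near the one given by chance. All 5 were transfection 3, but the groups share tags and libraries, so they are not independent. The mean log2 activity of the 433 H520-biased tags was 2.03 in DMSO transfection 3, against 2.17 to 2.23 in the others, and 2.12 in BaP transfection 3, against 2.24 to 2.28. BaP transfection 3 also held 371 M counts, where the other BaP libraries held 200 to 231 M. Tag AACCGCGATAGAggc (Lc) was at 88.2 TPM in DMSO transfection 3, against 78.5 to 80.7, and tag CCTCAAGACGACggc (Ld) at 48.7 TPM, against 43.0 to 44.0.

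Outside the tested tags, 7213 tags listed somewhere in the series had no count in the H520 input. As a set they were still read in H520 RNA, though not each of them need have been. Together they had 11.9 to 13.5 counts per M in the DMSO libraries and 12.1 to 14.9 in the BaP libraries. The lowest library had 11.9, and no single tag exceeded 41 counts. No sample serves as a control for these reads.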

How the results depend on the processing

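Without the block, edgeR's 0 calls became 11 with DESeq2 and 149 with the replicate block, and stayed 0 when any single library was left out. With the block, the 149 calls became 0 without it, 502 with DESeq2 (328 higher and 174 lower, 136 of the 149 among them), 55 at an adjusted p of 0.01 (30 and 25), and 20 to 128 when 1 transfection number was left out. Other settings gave 126 (without robust dispersions) to 178 (limma). The numbers over 0.1 in the pairing check were 1 of 5 over all tags, 3 of 5 with at least 1000 RNA counts and 5 of 5 over active tags. BaP minus DMSO of the library measures changed sign when single libraries were left out: -0.00597 to 0.0062 percentage points for tags listed, -0.00259 to 0.0243 for the 10 most abundant tags, -0.0899 to 0.175 for active tags, and -0.00075 to 0.00315 for the SD of activity. Of the 27 tags named from the fit with block, 0 changed direction under any alternative. Most were named for their response in the same libraries, so this is a description and no separate check. Calls were lost in 41 of 135 values with a number left out, in 25 of 27 without the block and in 5 of 212 under the other settings, and gained in 2 of 135 and 2 of 212. The cause of these changes was not tested. Tags under 100 input counts are limited by depth.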
